A study of Mus musculus with 15 samples.

Results

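The enzymes, carriers and helper proteins of fatty acid oxidation were followed in mouse kidney through 34 genes, chosen by symbol from the 19602 genes of the deposited table. Of these, 20 code for mitochondrial proteins, 10 for peroxisomal proteins and 4 for proteins placed in both organelles. All 34 passed the filter on low values and are among the 14651 genes tested. The groups were kidneys of Tert+/+ mice (here WT) given the vehicle, 0.3 M NaHCO3 (n = 4), WT mice given folic acid at 125 mg/kg (n = 3), G3 Tert-/- mice (here G3) given the vehicle (n = 4) and G3 mice given folic acid (n = 4). Tert codes for the catalytic subunit of telomerase, and G3 mice are the generation 3 of breeding without it, so their telomeres are shorter than those of WT mice. Every animal received 1 intraperitoneal injection at 6 to 8 weeks of age, and kidneys were perfused and taken at day 14. Folic acid at a high dose injures kidney tubules, and the study asks how that injury differs when telomeres are short.

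Kidney tubule cells, those of the proximal tubule above all, burn fatty acids as a main fuel. A fatty acid is activated to its acyl-CoA, carried into mitochondria on carnitine and shortened in repeated rounds of dehydrogenation, hydration, a further dehydrogenation and thiolysis, and the electrons pass through the electron transfer flavoprotein to the respiratory chain. Peroxisomes shorten very long, branched and dicarboxylic acids by a parallel set of enzymes that yields hydrogen peroxide, and PPAR alpha is the transcription factor best known for raising genes of both sets.

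Between 5014684 and 6609307 reads per library were assigned to genes (median 6091019). Values are size-factor-normalised counts from the 3' ends of polyadenylated RNA, so levels are compared between libraries and not between genes. Proximal tubule markers were present in all libraries, with 18 of 18 listed genes in the table, none at 0 in every library of a group, and summed levels of 204950 to 284928 in WT vehicle, 146882 to 183394 after folic acid in WT, 119889 to 141895 in G3 vehicle and 101544 to 235205 in G3 folic acid. Much of these sums was Kap, a gene known to be higher in male kidney. Its group means were 159099, 87314, 50039 and 98814, within mean sums of 248654, 167832, 130327 and 165376 in the same order. The median log2 difference of the 18 genes was -0.31 for folic acid in WT and 0.007 for genotype after vehicle. It was -0.04 for folic acid in G3 and 0.13 for genotype after folic acid. By limma with group alone, 3 of the 18 were called lower for folic acid in WT and 0 for folic acid in G3 (adjusted p under 0.05). For genotype, 4 were called lower and 1 higher after vehicle, and 1 lower after folic acid (Lrp2, log2 difference -1.07, adjusted p 0.0205). Of all genes 5.06, 0.273, 2.9 and 2.3 percent were called in this order. With the Y-linked RNA term described below, 0 of the 18 were called in each. The labelled sex was contradicted in 10 of 15 libraries by RNA of Xist, which the inactive X makes, and of 4 genes on the Y (Uty, Eif2s3y, Kdm5d, Ddx3y). By these genes, 8 libraries had high Xist with Y-linked RNA near 0 (WT folic acid 1, 2 and 3, G3 vehicle 1, 2, 3 and 4, and G3 folic acid 2), 5 had Y-linked RNA with little Xist (G3 folic acid 1 and 3, WT vehicle 1, 3 and 4) and 2 had both (WT vehicle 2 and G3 folic acid 4). Whether the sex entries or the libraries themselves were exchanged was not tested, nor whether the 2 libraries with both hold RNA of more than 1 animal, and group names follow the labels throughout. Tert itself was low in all groups, at 3.00 to 22.6 in the WT libraries and 2.93 to 15.1 in the G3 libraries. Which part of Tert the allele lacks is not given here, so these 3' reads check no genotype. Sex-linked RNA changed with the groups. Kap did not overlap between the 5 libraries with Y-linked RNA (109972 to 183643) and the 8 with Xist (37481 to 99569). For folic acid in WT and for genotype after vehicle no library of one group had the same kind of sex-linked RNA as one of the other, so the group and sex-linked RNA cannot be told apart. In both comparisons with G3 folic acid, only G3 folic acid 2 matched the Xist libraries of the other group. The difference of folic acid effects sets WT vehicle and G3 folic acid against WT folic acid and G3 vehicle. There too only G3 folic acid 2 matched the Xist libraries of the other pair, so this difference can hardly be told from sex-linked RNA. Each call among the members is given from the fit with group alone and again with the share of Y-linked RNA as a term (the summed Y-linked level over that of the highest library). The number series of the sample titles followed the groups too. All 3 WT folic acid libraries and WT vehicle 1 to 3 belong to the series b, G3 vehicle 1 to 3 to a, and all 4 G3 folic acid libraries with WT vehicle 4 and G3 vehicle 4 to c. No series holds both groups of the genotype comparison after folic acid, so series and genotype cannot be told apart there. In kidney bulk RNA a fall in a gene cannot be told from fewer cells that express it.

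Few of the 34 genes passed the test in any comparison, and with the Y-linked RNA share in the fit limma called 0 of them in each of the 5. In that fit, 0.00683, 0.0614, 0.00683, 0.116 and 0.0137 percent of all genes were called, in the order folic acid in WT, folic acid in G3, genotype after vehicle, genotype after folic acid and difference of folic acid effects. At an unadjusted p under 0.05 it gave 1, 11, 3, 8 and 1 members in the same order, beside 4.38, 8.93, 5.79, 10.5 and 2.78 percent of all genes. Without that term, Pex11a was lower after folic acid than after vehicle in WT, and Acsl1 in G3. After vehicle, Hadhb, Hacl1 and Acaa2 were higher in G3 than in WT. After folic acid, Etfdh and Acsl1 were lower in G3 than in WT. The folic acid effect on Acsl1 and Hadhb was lower in G3 than in WT by a test of the difference itself. With the title series as a term limma also called 0 members, beside 2, 0, 1, 0 and 3 of the 14651 genes tested in the same order. All other members stayed short of the threshold (limma with Benjamini-Hochberg adjustment over all genes tested, adjusted p under 0.05).

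**Figure D1:**
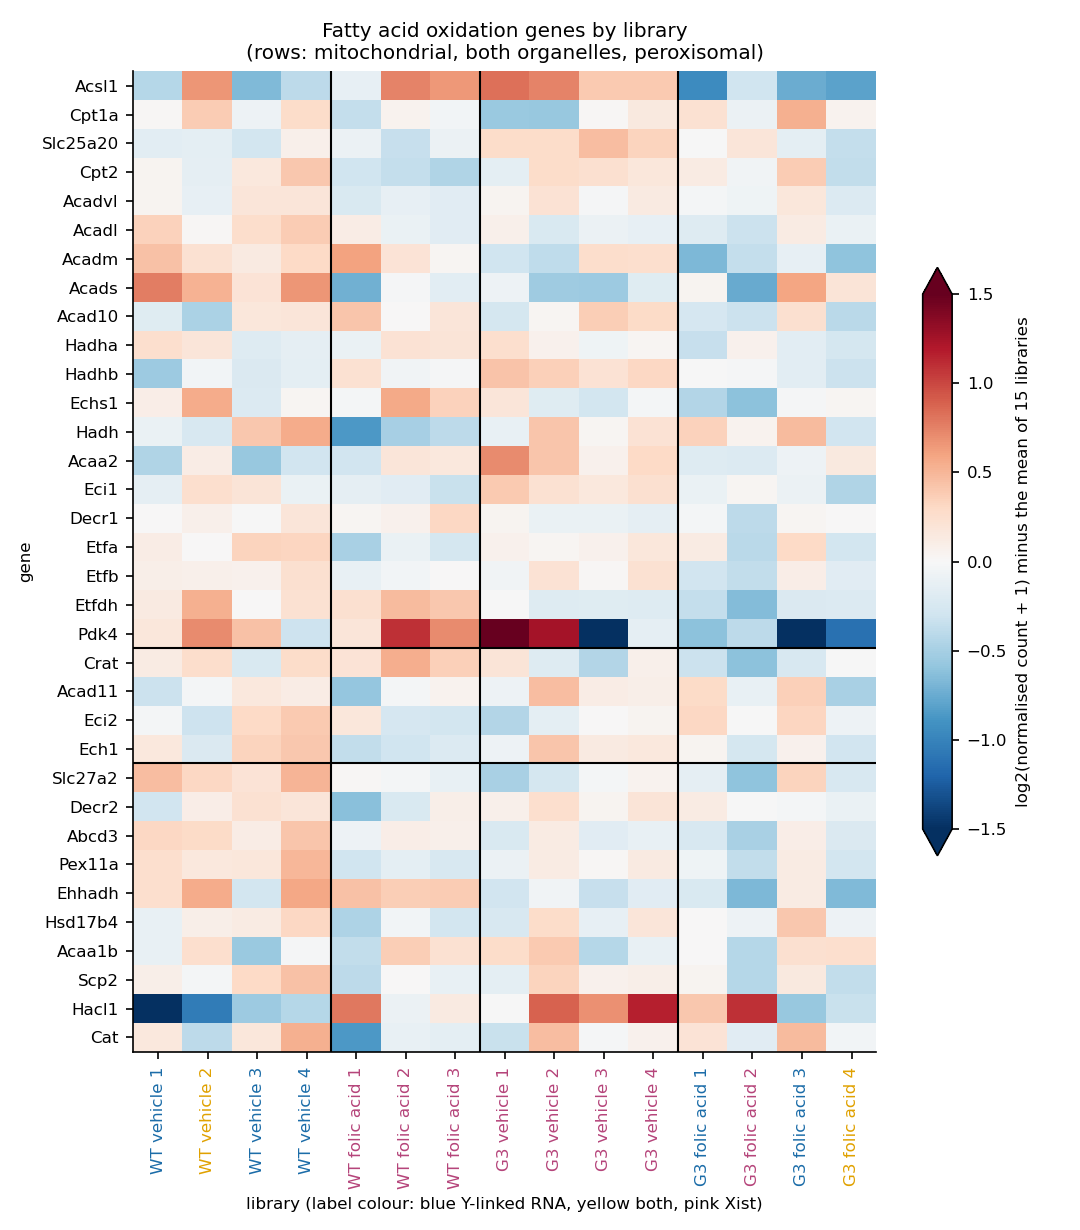
Level of each of the 34 genes (rows, mitochondrial at the top, both organelles, peroxisomal at the bottom) in each of the 15 libraries (columns), as log2(normalised count + 1) minus the gene's mean over the libraries; the colour of a library name gives its sex-linked RNA. G3 folic acid 2 and 4 are mostly blue, WT vehicle 4 is mostly red, and Pdk4, Hacl1 and Acsl1 have the widest ranges.

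Activation and entry came first among the steps examined. Acsl1, the long-chain acyl-CoA synthetase of the mitochondrial outer membrane, stood at 1225, 2603, 1039 and 1254 normalised counts in WT vehicle 1 to 4 and at 1512, 2753 and 2588 in WT folic acid 1 to 3. In G3 it stood at 2912, 2765, 2155 and 2156 after vehicle and at 855, 1344, 980 and 947 after folic acid. All 4 G3 folic acid libraries lay below all 4 G3 vehicle libraries and below all 3 WT folic acid libraries. WT vehicle 2 lay far above the other 3 libraries of its group, so WT vehicle overlapped both WT folic acid and G3 vehicle.

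Acsl1 was 2.43-fold lower after folic acid than after vehicle in G3 (log2 difference -1.28, SE 0.25, adjusted p 0.0410), a comparison in which 0.273 percent of all genes tested were called. The Y-linked RNA share as a term brought the log2 difference to -0.76 (adjusted p 0.308). After folic acid Acsl1 was 2.17-fold lower in G3 than in WT (log2 difference -1.12, SE 0.27, adjusted p 0.0406), with -0.61 and an adjusted p of 0.410 beside the Y-linked RNA share, and 2.3 percent of all genes were called there. The difference of the folic acid effects, G3 minus WT, was -1.91 (log2, SE 0.37, adjusted p 0.00902), in a comparison in which 3.82 percent of all genes were called. It was called in all 15 fits that left out 1 library, and fell to -0.51 (adjusted p 0.9997) with the Y-linked RNA share. Leaving out 1 library does not separate the groups from sex-linked RNA. The fall in G3 lost its call when WT vehicle 1 or 4, WT folic acid 3, any G3 vehicle library, or G3 folic acid 1 or 4 was left out (adjusted p 0.0507 to 0.181). The genotype difference after folic acid lost its call without any 1 of 10 libraries (WT vehicle 1 or 4, WT folic acid 2 or 3, G3 vehicle 2, 3 or 4, G3 folic acid 1, 3 or 4), with adjusted p of 0.0503 to 0.159.

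Acsl1 was also 1 of the 2 members whose levels did not overlap between the 5 libraries with Y-linked RNA (855 to 1254) and the 8 with Xist (1344 to 2912). Among those 8, the only G3 folic acid library had the lowest level, 1344, against 1512 to 2753 in WT folic acid and 2155 to 2912 in G3 vehicle. Among the 5, the 2 G3 folic acid libraries stood at 855 and 980 and the 3 WT vehicle libraries at 1039 to 1254. G3 vehicle 1, the highest for Acsl1, also held fat cell RNA, with 297 normalised counts of Adipoq against 43 or fewer in every other library. Without it the G3 folic acid difference of Acsl1 was -1.20 (adjusted p 0.0758). Without WT vehicle 2, Acsl1 was called higher after folic acid in WT (log2 difference 0.92, adjusted p 0.0173, against 0.63 and 0.171 with it) and higher in G3 than in WT after vehicle (1.08, adjusted p 0.00634, against 0.79 and 0.0936). In the fit of all libraries with the Y-linked RNA share these 2 differences were below 0, at -0.25 and -0.11.

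RefSeq (GRCm38.p6) gives Acsl1, at chr8:46471037-46536051, a pair of start sites with promoter windows of different make-up, shown because 3' end reads do not tell the transcripts from them apart. Each line is the 250 bases before a start site on the plus strand, and capitals mark the GC box GGGCGG, searched on both strands.
Acsl1 upstream start, chr8:46470787-46471036: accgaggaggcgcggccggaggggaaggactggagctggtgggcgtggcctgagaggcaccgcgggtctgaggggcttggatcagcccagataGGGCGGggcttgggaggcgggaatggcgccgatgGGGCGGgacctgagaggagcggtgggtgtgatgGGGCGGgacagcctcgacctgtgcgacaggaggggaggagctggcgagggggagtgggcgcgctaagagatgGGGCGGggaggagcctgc
Acsl1 downstream start, chr8:46490716-46490965: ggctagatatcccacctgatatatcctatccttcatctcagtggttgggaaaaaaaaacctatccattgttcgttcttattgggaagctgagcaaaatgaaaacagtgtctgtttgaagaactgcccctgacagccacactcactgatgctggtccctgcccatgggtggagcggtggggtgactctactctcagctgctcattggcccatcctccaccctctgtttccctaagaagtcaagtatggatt
The upstream stretch held 4 copies of the GC box and the downstream stretch 0. In windows of 300 bases (250 before to 50 after the start), the GC box was found in 23 of 32 windows of the members (71.9 percent) and in 35.7 percent of the 32851 windows of all genes.

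Cpt1a, the carnitine palmitoyltransferase that sets the rate of entry into mitochondria, read 1085, 1391, 1011 and 1300 in WT vehicle and 833, 1110 and 1043 in WT folic acid. Its levels in G3 were 725, 719, 1079 and 1181 after vehicle and 1255, 1004, 1543 and 1109 after folic acid. The groups overlapped in all 4 pairwise comparisons. G3 folic acid was above G3 vehicle by 0.42 on the log2 scale (SE 0.18), which did not pass (adjusted p 0.294, and 0.35 with the Y-linked RNA share). RefSeq places Cpt1a at chr19:3322326-3385735, and the start site of its promoter window lies inside that span. The 250 bases before this start site on the plus strand, chr19:3323051-3323300, hold AGGTCA in reverse, the motif of which PPAR with RXR binds a direct repeat. It lies 94 bases before this start, in capitals as TGACCT.
Cpt1a: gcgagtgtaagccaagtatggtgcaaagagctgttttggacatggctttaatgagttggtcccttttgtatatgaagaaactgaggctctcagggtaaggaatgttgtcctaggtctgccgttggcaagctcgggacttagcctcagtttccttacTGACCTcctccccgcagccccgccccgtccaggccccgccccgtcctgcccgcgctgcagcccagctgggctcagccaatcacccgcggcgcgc

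Slc25a20, the carnitine-acylcarnitine carrier of the inner membrane, had levels of 101 to 129 in WT vehicle, 96.0 to 115 in WT folic acid, 148 to 169 in G3 vehicle and 94.8 to 139 in G3 folic acid. G3 vehicle lay above both other groups it is compared with, but neither difference passed (0.46 on the log2 scale against WT vehicle, adjusted p 0.0753, and -0.42 for folic acid in G3, adjusted p 0.163). The Y-linked RNA share left these at 0.41 and -0.39. Cpt2, which moves the acyl group back to CoA inside mitochondria, ranged from 217 to 316 in WT vehicle and from 174 to 194 in WT folic acid, without overlap (log2 difference -0.48, adjusted p 0.102, and -0.05 with the Y-linked RNA share). In G3 vehicle (216 to 288) and G3 folic acid (184 to 310) its ranges overlapped. Crat, the carnitine acetyltransferase, did not overlap between WT folic acid (320 to 408) and G3 folic acid (181 to 277). That difference of -0.67 (log2, adjusted p 0.0574, and -0.68 with the Y-linked RNA share) was called without WT folic acid 1, G3 vehicle 1 or G3 folic acid 4 (adjusted p 0.0433 to 0.0452). Slc27a2, a peroxisomal and reticular very long-chain acyl-CoA synthetase, was highest in WT vehicle, with 6466 to 7952, against 5183 to 5666 in WT folic acid and 3980 to 5824 in G3 vehicle, and it spread from 3671 to 7073 in G3 folic acid. Its vehicle difference of -0.56 (G3 against WT, adjusted p 0.0892, and -0.10 with the Y-linked RNA share) was called without G3 folic acid 2 or 3 (adjusted p 0.0424 and 0.0475), libraries that are in neither group and enter through the shared spread.

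The acyl-CoA dehydrogenases differ in the chain length they accept. Acads, the short-chain enzyme, had 2648, 2243, 1802 and 2461 normalised counts in WT vehicle and 947, 1542 and 1398 in WT folic acid. In G3 it had 1477, 1080, 1065 and 1369 after vehicle and 1606, 920, 2349 and 1786 after folic acid. WT vehicle lay above WT folic acid and above G3 vehicle with no overlap, and the G3 folic acid libraries were spread over both ranges. The log2 differences were -0.84 for folic acid in WT (SE 0.25, adjusted p 0.0616) and -0.87 for G3 against WT after vehicle (SE 0.23, adjusted p 0.0507), both short of the threshold. The difference of folic acid effects was 1.19 (SE 0.34, adjusted p 0.0625, 0.0472 by edgeR).

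Leaving out 1 library brought Acads past the threshold in several fits. In WT, folic acid was called without G3 folic acid 2 or 3 (adjusted p 0.0193 and 0.0394). After vehicle, G3 against WT was called without WT folic acid 1, G3 vehicle 1, G3 folic acid 2 or G3 folic acid 3 (0.00944 to 0.0496), and the difference of effects was called without G3 folic acid 2 (0.00370). Acads was the other member without overlap by sex-linked RNA, with 1606 to 2648 in the 5 libraries with Y-linked RNA and 920 to 1542 in the 8 with Xist. With the Y-linked RNA share its 3 log2 differences were -0.28, -0.31 and 0.30. The share of members without overlap, 2 of 34 or 5.88 percent, stood beside 4.24 percent of all genes tested (621 genes).

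**Figure D2:**
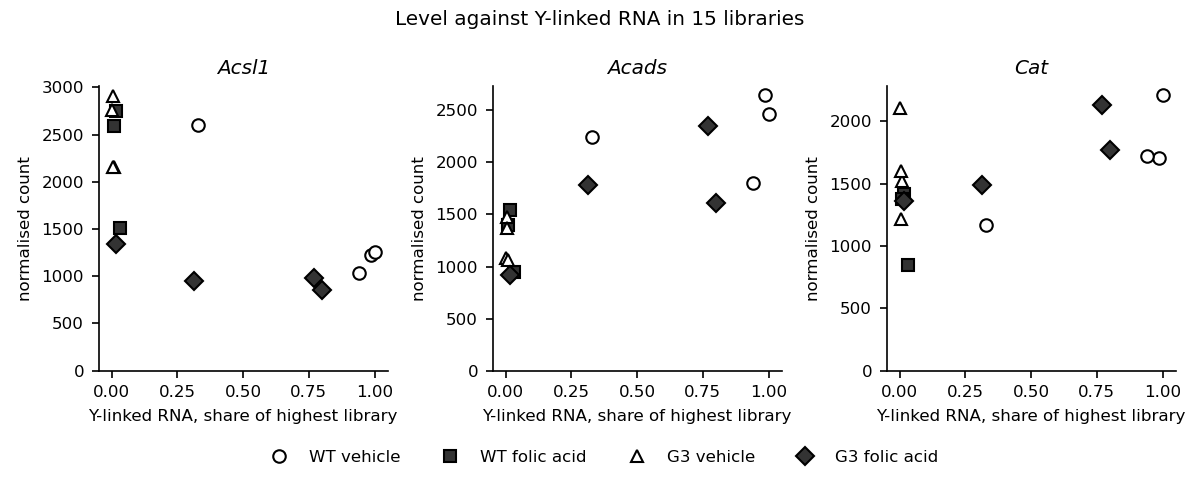
Normalised count of Acsl1, Acads and Cat (vertical axes) against the Y-linked RNA share of each of the 15 libraries (horizontal axes; 1 is the highest library), with a symbol per group. Acsl1 is 1344 or higher in all 8 libraries with Xist and at most 1254 in the 5 with most Y-linked RNA, Acads shows the opposite order, and Cat overlaps.

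Acadm, the medium-chain dehydrogenase, was measured at 6663, 5714, 5387 and 6031 in WT vehicle and at 7425, 5652 and 4991 in WT folic acid. The G3 libraries had 3964, 3749, 5892 and 5809 after vehicle and 3063, 3809, 4490 and 3225 after folic acid. All G3 folic acid libraries lay below all WT folic acid libraries. The difference of -0.72 (log2, SE 0.19, adjusted p 0.0574) became a call without G3 vehicle 1 (adjusted p 0.0479) and with the labelled sex as a term (-0.77, adjusted p 0.0358), and was -0.76 with the Y-linked RNA share (adjusted p 0.299). Its promoter stretch, the 250 bases before the start site on the minus strand at chr3:153944644-153944893, also holds AGGTCA in reverse, in capitals as TGACCT, 249 bases before the start.
Acadm: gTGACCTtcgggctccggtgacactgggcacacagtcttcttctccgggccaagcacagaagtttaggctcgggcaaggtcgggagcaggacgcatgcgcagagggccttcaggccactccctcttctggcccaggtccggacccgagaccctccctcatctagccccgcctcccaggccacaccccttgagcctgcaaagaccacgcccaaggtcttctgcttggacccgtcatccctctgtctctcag
Of the 34 members, 30 matched a RefSeq promoter window. AGGTCA on either strand was found in 7 of the 30 genes (23.3 percent: Acadm, Acadvl, Cat, Cpt1a, Echs1, Scp2 and Slc27a2) and in 18.1 percent of the 27025 genes with a window. A direct repeat of it with 1 free base between was found in 0 members and in 13 of all genes.

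Acadvl, which starts the cycle on very long chains, had a narrow range of 556 to 756 over all libraries. Acadl, the long-chain enzyme, had 1364 to 1755 in WT vehicle and 1074 to 1463 in the 11 libraries of the other groups. Acad10 (59.7 to 111) and Acad11 (99.8 to 208), less studied members of the family, overlapped between all groups compared, and Acad10 can share reads with its close relative Acad12. None of these 4 passed in any comparison.

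Hydration, the next dehydrogenation and thiolysis of long chains are done by the mitochondrial trifunctional protein, whose alpha subunit is coded by Hadha and whose beta subunit, the thiolase, by Hadhb. Hadhb read 231, 327, 290 and 306 in WT vehicle and 395, 326 and 334 in WT folic acid. In G3 it read 455, 433, 393 and 418 after vehicle and 336, 333, 302 and 269.3 after folic acid. G3 vehicle lay above WT vehicle and above G3 folic acid with no overlap. After vehicle Hadhb was 1.48-fold higher in G3 than in WT (log2 difference 0.57, SE 0.12, adjusted p 0.0215), where 2.9 percent of all genes were called. The value with the Y-linked RNA share was 0.45 (adjusted p 0.803). Without WT vehicle 1, WT vehicle 4, G3 vehicle 2 or G3 vehicle 4 the call was lost (adjusted p 0.0538 to 0.0946).

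Folic acid in G3 gave Hadhb a log2 difference of -0.46 that did not pass (adjusted p 0.0952). The difference of folic acid effects, G3 minus WT, was -0.75 (SE 0.18, adjusted p 0.0298, and -0.56 with an adjusted p of 0.9997 beside the Y-linked RNA share). It was called in 4 of the 15 fits that left out 1 library, namely those without WT vehicle 2, G3 vehicle 3, G3 folic acid 1 or G3 folic acid 2. In the other 11 the adjusted p was 0.0502 to 0.0614, and the log2 difference stayed between -0.80 and -0.65.

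Hadha, the alpha subunit, had 1601, 1527, 1170 and 1226 in WT vehicle, 1250, 1564 and 1530 in WT after folic acid, 1603, 1402, 1282 and 1367 in G3 vehicle and 1054, 1400, 1200 and 1115 in G3 folic acid. Its groups overlapped in every comparison and none passed. Its differences were not tested against those of Hadhb. Hadha (chr5:30119423-30154980, minus strand) and Hadhb (chr5:30155253-30184593, plus strand) lie head to head with start sites 273 bases apart, so they share most of a promoter region. The stretch printed is the 250 bases before the Hadhb start on the plus strand, chr5:30155003-30155252, and its 228 capitals also lie within the 250 bases before the Hadha start.
Hadhb: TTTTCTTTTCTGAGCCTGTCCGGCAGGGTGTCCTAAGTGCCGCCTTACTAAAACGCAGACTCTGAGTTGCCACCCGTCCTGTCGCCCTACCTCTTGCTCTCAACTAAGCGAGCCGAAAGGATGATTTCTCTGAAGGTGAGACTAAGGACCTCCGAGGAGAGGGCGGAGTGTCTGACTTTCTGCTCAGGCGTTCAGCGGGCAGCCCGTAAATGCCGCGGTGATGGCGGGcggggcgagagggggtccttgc

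Acaa2, a mitochondrial thiolase, stood at 622, 924, 578 and 699 in WT vehicle and 698, 967 and 950 in WT folic acid. Its G3 values were 1392, 1144, 894 and 1048 after vehicle and 744, 740, 810 and 947 after folic acid. It was 1.59-fold higher in G3 than in WT after vehicle (log2 difference 0.67, SE 0.16, adjusted p 0.0354), although WT vehicle 2 at 924 lay above G3 vehicle 3 at 894. The log2 difference was 0.36 with the Y-linked RNA share (adjusted p 0.830). The call was lost without WT vehicle 1, 3 or 4 or without G3 vehicle 1, 2 or 4 (adjusted p 0.0749 to 0.132). The highest value, in G3 vehicle 1, was in the library with fat cell RNA, and without that library the difference was 0.56 (adjusted p 0.0749).

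Hadh, the dehydrogenase of short and medium chains, was lowest in WT folic acid at 562, 719 and 775. Its other values were 950, 859, 1345 and 1500 in WT vehicle, 942, 1362, 1035 and 1184 in G3 vehicle and 1292, 1052, 1411 and 836 in G3 folic acid. WT folic acid overlapped neither WT vehicle nor G3 folic acid. The log2 difference was -0.74 for folic acid in WT (SE 0.21, adjusted p 0.0521, and -0.18 with the Y-linked RNA share). It was called without WT vehicle 2, G3 vehicle 1, G3 folic acid 3 or G3 folic acid 4 (adjusted p 0.0196 to 0.0498). G3 against WT after folic acid was 0.73 (adjusted p 0.0745, and 0.41 with the Y-linked RNA share), a call only without G3 folic acid 4 (0.0431). Echs1, the short-chain enoyl-CoA hydratase, spread from 486 to 1105 and passed in no comparison.

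The helper enzymes for unsaturated fatty acids passed in none. Eci1, which shifts double bonds in mitochondria, had 240, 313, 301 and 245 in WT vehicle, 239, 232 and 208 in WT after folic acid, 344, 308, 293 and 311 in G3 vehicle and 245, 267, 248 and 192 in G3 folic acid. G3 folic acid lay below G3 vehicle without overlap (log2 difference -0.41, SE 0.13, adjusted p 0.151, and -0.32 with the Y-linked RNA share). Its relative Eci2 (239 to 426), which can share reads with Eci3, overlapped in every comparison. Ech1, a dienoyl-CoA isomerase, had 858 to 956 in WT folic acid and 953 to 1466 in WT vehicle, a log2 difference of -0.46 (adjusted p 0.0864, and 0.01 with the Y-linked RNA share) that was called only without WT vehicle 2 (-0.59, adjusted p 0.0189). Decr1, the dienoyl-CoA reductase of mitochondria, had 709 to 861 in WT folic acid and 527 to 708 in G3 folic acid, without overlap (log2 difference -0.24, adjusted p 0.285, and -0.34 with the Y-linked RNA share). Decr2, its peroxisomal counterpart (234 to 433), overlapped in every comparison.

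Electrons from the acyl-CoA dehydrogenases pass to the flavoprotein of Etfa and Etfb and on to ubiquinone through Etfdh. Etfdh had 287, 378, 262 and 306 normalised counts in WT vehicle and 309, 364 and 345 in WT folic acid. In G3 it had 260, 228, 230 and 228 after vehicle and 203, 166, 224 and 226 after folic acid. Every G3 library lay below every WT library given the same injection. After folic acid Etfdh was 1.66-fold lower in G3 (log2 difference -0.73, SE 0.14, adjusted p 0.0198), and the estimate with the Y-linked RNA share was -0.70 (adjusted p 0.183). Among libraries with Xist, the only G3 folic acid library, G3 folic acid 2, had 166 and the 3 WT folic acid libraries 309 to 364. That library had the lowest value of 12 members, and it is of another title series than the WT folic acid libraries. The call was lost without WT folic acid 2, WT folic acid 3 or G3 folic acid 1 (adjusted p 0.0709 to 0.0919). After vehicle the difference was -0.37 (adjusted p 0.140, and -0.42 with the Y-linked RNA share).

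Etfa had 286 to 360 in WT vehicle and 202 to 265 in WT folic acid, without overlap (log2 difference -0.48, adjusted p 0.0882, and 0.02 with the Y-linked RNA share). Etfb (2334 to 3564) passed in no comparison, with a log2 difference of -0.29 for folic acid in G3 (adjusted p 0.283). Pdk4, the kinase that shuts pyruvate out of the citrate cycle when fat is burned, was near the limit of detection, with 10.2, 15.2, 12.5 and 6.99 in WT vehicle, 10.2, 20.2 and 15.3 in WT after folic acid, 37.6, 22.5, 2.16 and 8.02 in G3 vehicle and 5.45, 6.58, 0.999 and 3.58 in G3 folic acid. A read was worth 0.895 to 1.13 normalised counts, so the lowest of these is a single read. The highest was in G3 vehicle 1, with its fat cell RNA. Pdk4 passed in no comparison, with log2 differences of -1.46 for folic acid in G3 (SE 0.62, adjusted p 0.297) and of -1.77 for G3 against WT after folic acid (SE 0.67, adjusted p 0.153), where the groups did not overlap. These were -0.92 and -1.25 with the Y-linked RNA share.

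**Figure D3:**
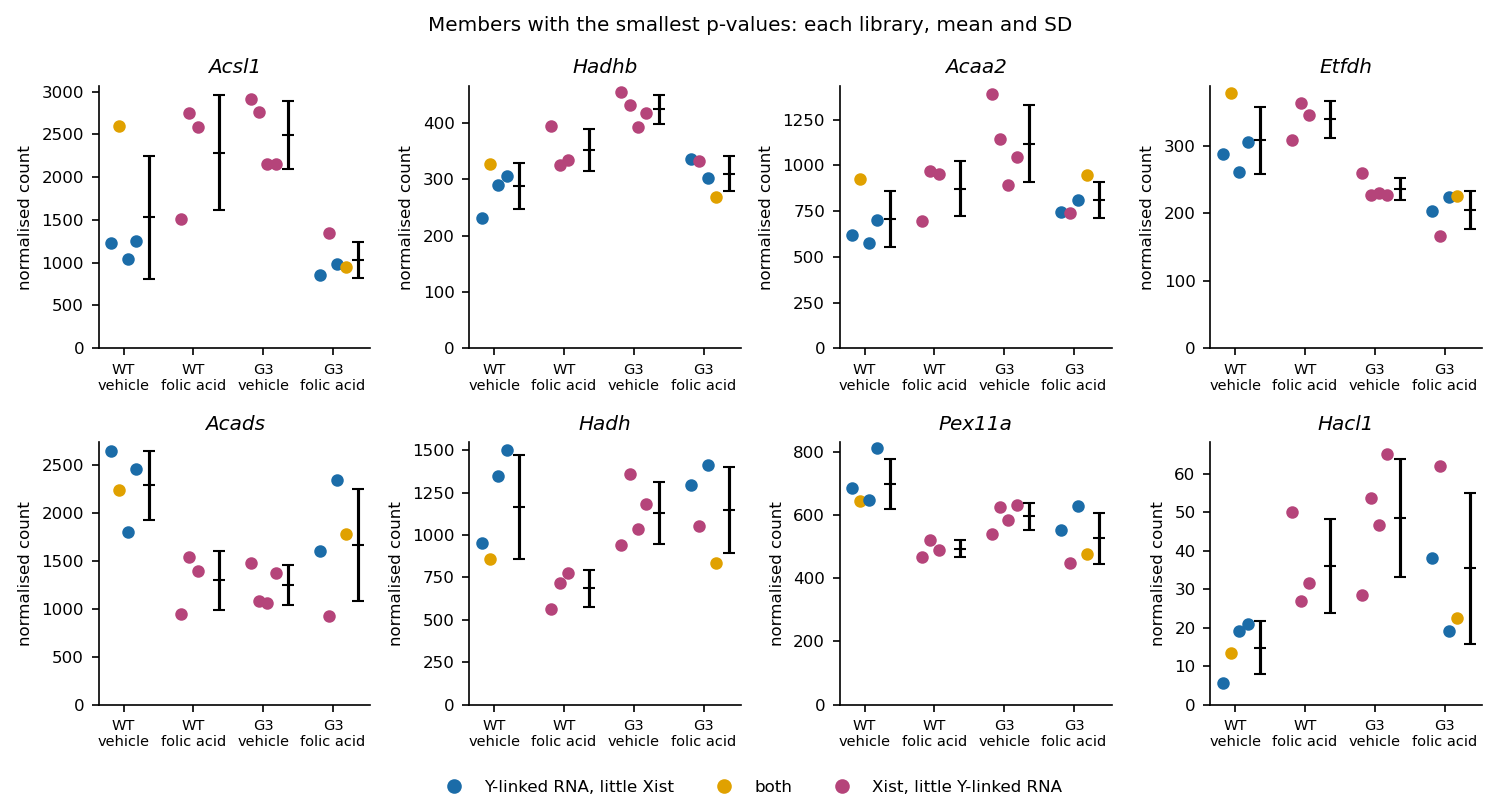
Normalised count of 8 genes in each library (points, coloured by sex-linked RNA) with the group mean and SD (bars beside the points; n = 4, 3, 4 and 4). Acsl1 and Hadhb are lower in all 4 G3 folic acid libraries than in all 4 G3 vehicle libraries, Etfdh is below WT in both G3 groups, and Pex11a is lowest as a group in WT folic acid.

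In peroxisomes, Pex11a, which helps the organelle elongate and divide, read 685, 645, 648 and 813 in WT vehicle and 469, 523 and 490 in WT folic acid. Its G3 levels were 541, 627, 585 and 631 after vehicle and 554, 448, 628 and 478 after folic acid. WT vehicle lay above WT folic acid and above G3 vehicle. Pex11a was 1.41-fold lower after folic acid than after vehicle in WT (log2 difference -0.49, SE 0.13, adjusted p 0.0384), a comparison in which 5.06 percent of all genes were called. This became -0.17 with the Y-linked RNA share (adjusted p 0.981). Without WT vehicle 4, the library of another title series, it was -0.42 (adjusted p 0.127). The call was lost without WT vehicle 1, 3 or 4, any WT folic acid library, G3 vehicle 3 or G3 vehicle 4 (adjusted p 0.0506 to 0.129).

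Hacl1, the lyase of alpha-oxidation, was low, at 5.65, 13.3, 19.2 and 21.0 in WT vehicle and 49.9, 26.9 and 31.5 in WT folic acid. In G3 it was at 28.5, 53.7, 46.5 and 65.1 after vehicle and 38.1, 62.0, 18.98 and 22.4 after folic acid. WT vehicle lay below WT folic acid and below G3 vehicle without overlap. After vehicle Hacl1 was 3.31-fold higher in G3 (log2 difference 1.73, SE 0.41, adjusted p 0.0296, and 1.20 with an adjusted p of 0.805 beside the Y-linked RNA share). The call was lost without WT vehicle 1 or 4 or G3 vehicle 2, 3 or 4 (adjusted p 0.0544 to 0.115). For folic acid in WT the difference of 1.32 did not pass (adjusted p 0.0859, and 0.81 with the Y-linked RNA share). The difference of folic acid effects was -1.86 (adjusted p 0.1003), and became a call without G3 folic acid 2 (-2.17, adjusted p 0.0316).

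Ehhadh, the peroxisomal enzyme with hydratase and dehydrogenase activity, had 276, 341, 191 and 346 in WT vehicle, 315, 300 and 301 in WT after folic acid, 190, 223, 183 and 206 in G3 vehicle and 198, 145, 252 and 146 in G3 folic acid. All G3 folic acid libraries lay below all WT folic acid libraries (log2 difference -0.76, SE 0.21, adjusted p 0.0616, and -0.90 with an adjusted p of 0.238 beside the Y-linked RNA share). This passed without WT vehicle 2, WT vehicle 3 or G3 folic acid 3 (adjusted p 0.0397 to 0.0494). Cat, the catalase that removes hydrogen peroxide, had 1705, 1164, 1720 and 2214 in WT vehicle, 844, 1418 and 1380 in WT after folic acid, 1215, 2109, 1517 and 1603 in G3 vehicle and 1770, 1358, 2129 and 1485 in G3 folic acid. Its groups overlapped in all comparisons and it passed in none.

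Abcd3, a transporter of fatty acyl-CoA into peroxisomes, ranged from 1820 to 2234 in WT vehicle, 1595 to 1799 in WT folic acid, 1433 to 1829 in G3 vehicle and 1198 to 1799 in G3 folic acid. Hsd17b4, the peroxisomal multifunctional enzyme for branched chains (195 to 359), and Scp2, the thiolase and sterol carrier (453 to 826), passed in no comparison. Acaa1b, a peroxisomal thiolase, ranged from 955 to 1838 and is uncertain because Acaa1a is a near copy of it.

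Over the whole set, folic acid in WT gave 1 call among 34 (lower) beside the 5.06 percent of all genes called (2.89 percent lower), and 13 members at an unadjusted p under 0.05 (3 higher, 10 lower) beside 23.1 percent of all genes. The median log2 difference was -0.19 for the 34 and 0.01 for all genes tested, and 20 of 34 were below 0 beside 48.7 percent of all genes. The members' median became 0.01 with the Y-linked RNA share, and 11 of 34 changed sign (29 percent of all genes did). Of these 11, Acadl, Acsl1, Ech1, Etfa, Scp2 and Slc27a2 had an unadjusted p under 0.05 with group alone. By organelle the medians in WT were -0.02 for the 20 mitochondrial genes, 10 of them below 0, and -0.34 for the 10 peroxisomal genes, 7 of them below 0. With the Y-linked RNA share these were -0.002 for the mitochondrial genes, 11 below 0, and 0.08 for the peroxisomal genes, 4 below 0. Groups did not overlap for 10 members (9 lower), beside 19.9 percent of all genes.

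In G3, folic acid gave 1 call (lower) beside 0.273 percent of all genes called (0.116 percent lower), and 9 members at an unadjusted p under 0.05 (1 higher, 8 lower, all 9 mitochondrial) beside 13.8 percent. The median was -0.17 for the 34 and -0.01 for all genes, and 27 of 34 members were below 0 beside 51.6 percent of all genes. It was -0.23 for the mitochondrial genes, with 17 of 20 below 0, and -0.13 for the peroxisomal genes, with 7 of 10. Once the Y-linked RNA share was a term, 32 of 34 members were below 0, with a median of -0.28, beside 54.1 percent of all genes and their median of -0.03. In that fit 5 members changed sign, beside 21.4 percent of all genes. That fit gave 11 members at an unadjusted p under 0.05, beside 8.93 percent of all genes. Of these 11, 8 were mitochondrial, 2 peroxisomal and 1 of both organelles. Its medians were -0.32 for the mitochondrial genes, with 18 of 20 below 0, and -0.25 for the peroxisomal genes, with 10 of 10. All G3 vehicle libraries had a Y-linked RNA share near 0, and of the G3 folic acid libraries only G3 folic acid 2 did (0.017). That library had the lowest value of 12 members and lay below the members' median in 27 of 34. How far the fit with this share rests on it was not tested. Groups did not overlap for 5 members, all lower and mitochondrial, beside 7.75 percent of all genes. Both folic acid comparisons had the same sign, below 0, for 13 members, and 0 members were above 0 in both. In 14 the difference was above 0 in WT and below in G3, and in 7 the reverse. This split is from the fit with group alone and was not counted over all genes.

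After vehicle, G3 against WT gave 3 calls (all higher) beside 2.9 percent of all genes called (0.867 percent higher), and 12 members at an unadjusted p under 0.05 (5 higher, 7 lower) beside 17.9 percent. The median was -0.04, and groups did not overlap for 7 members (3 higher, 4 lower) beside 11 percent of all genes. After folic acid there were 2 calls (both lower) beside 2.3 percent of all genes called (1.58 percent lower), and 9 members at an unadjusted p under 0.05 (2 higher, 7 lower) beside 20.4 percent, with a median of -0.07. Here 8 members did not overlap (1 higher, 7 lower) beside 17.3 percent. The difference of folic acid effects gave 2 calls (both lower) beside 3.82 percent (1.67 percent lower), 7 members at an unadjusted p under 0.05 (3 higher, 4 lower) beside 16.8 percent, and a median of -0.04, which was -0.30 with the Y-linked RNA share. The Y-linked RNA share changed the sign of 13 members after vehicle, 8 after folic acid and 15 in the difference of effects, beside 30.3, 17 and 37 percent of all genes. The genotype comparison after vehicle shares its libraries with both folic acid comparisons, so their values are not independent.

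**Figure D4:**
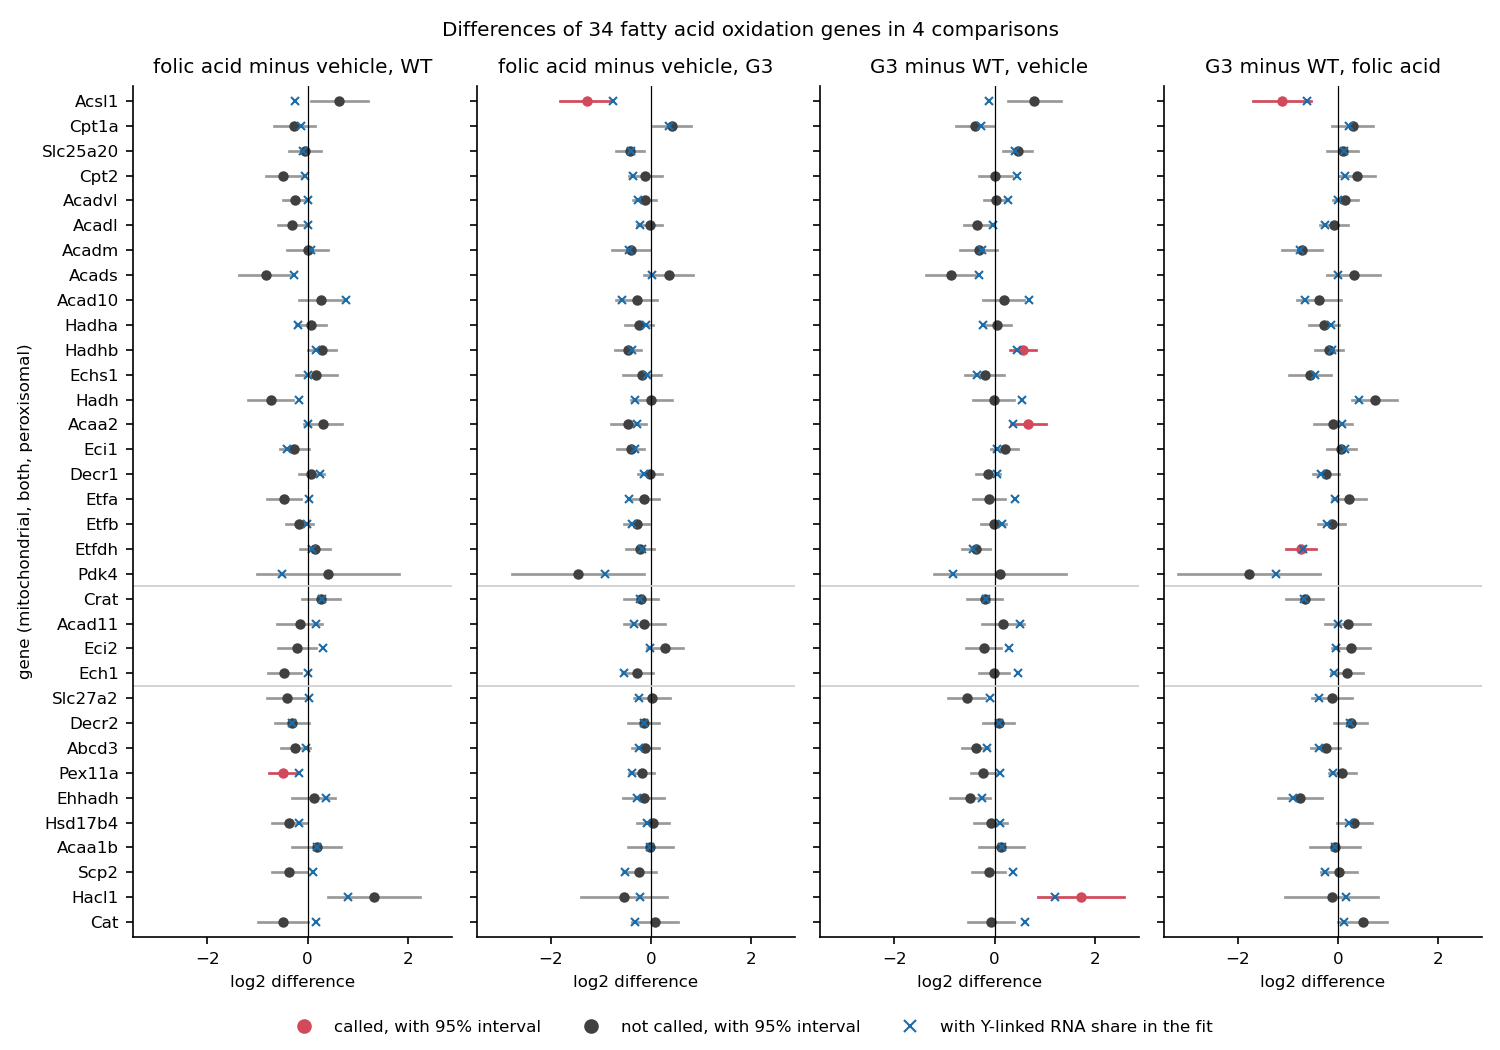
Log2 difference of each of the 34 genes (rows) in 4 comparisons (panels), with the 95% interval of the fit with group alone (points and lines, red where called) and the estimate with the Y-linked RNA share (blue crosses). Calls are Pex11a in the WT panel, Acsl1 in the G3 panel, Hadhb, Acaa2 and Hacl1 after vehicle, and Acsl1 and Etfdh after folic acid.

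Summed over the 20 mitochondrial genes, levels were 22991 ± 1455 (SD, n = 4) in WT vehicle, 21636 ± 750 (n = 3) in WT folic acid, 21567 ± 849 (n = 4) in G3 vehicle and 18031 ± 2172 (n = 4) in G3 folic acid. In the last group G3 folic acid 1, 2 and 4 stood at 16933, 16735 and 17179, below every other library, and G3 folic acid 3 at 21277, within the range of the others. A few abundant genes carried the sums. From G3 vehicle to G3 folic acid the mean sum fell by 3536, of which Acsl1 made up 41.4 percent, Acadm 34.1 percent and Etfb 16.2 percent. The peroxisomal sums were 14733 ± 1391, 11812 ± 826, 11812 ± 1177 and 11688 ± 2469 in the same order of groups, and were highest in WT vehicle 4 (16543). With folic acid in WT their mean fell by 2921, of which Slc27a2 made up 62.7 percent. G3 folic acid 2 had the lowest value of 12 members and G3 folic acid 4 lay below the members' median in 28 of 34. The 11 tubular injury markers moved with these groups, summing to 2359 to 3381 in WT vehicle, 3948 to 6975 in WT folic acid, 3222 to 3951 in G3 vehicle and 4278 to 9106 in G3 folic acid. Most of these sums came from Clu (means 1814, 2869, 1953 and 4386) and Spp1 (463, 1331, 1092 and 2038). Havcr1 stood at 80.8 or fewer in every library. The 10 macrophage markers summed to 1536 to 2057, 1990 to 5874, 1202 to 2071 and 1922 to 4896 in the same order of groups, and the 8 fibroblast markers to 1128 to 1734, 1564 to 10117, 1070 to 2055 and 2709 to 5402. In G3 folic acid 1, 2 and 4, the libraries of low mitochondrial sum, macrophage sums were 4896, 3915 and 4583 and fibroblast sums 5402, 4735 and 4563, against 1922 and 2709 in G3 folic acid 3. WT folic acid 1 had the highest macrophage and fibroblast sums of all libraries, 5874 and 10117, with a mitochondrial sum of 21038. The 5 erythroid markers summed to 27153 to 44529 in G3 vehicle and 6177 to 22087 in G3 folic acid, without overlap. None of these markers was at 0 in every library of a group, apart from Fcgr1 in G3 vehicle. The part of injury, macrophage, fibroblast and erythroid RNA in the members' levels was not tested. In WT folic acid 1, which was lowest for 8 members, 23.0 percent of reads fell on Gm42418, a locus that overlaps ribosomal RNA, against 4.85 to 8.15 percent in the other libraries.

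**Figure D5:**
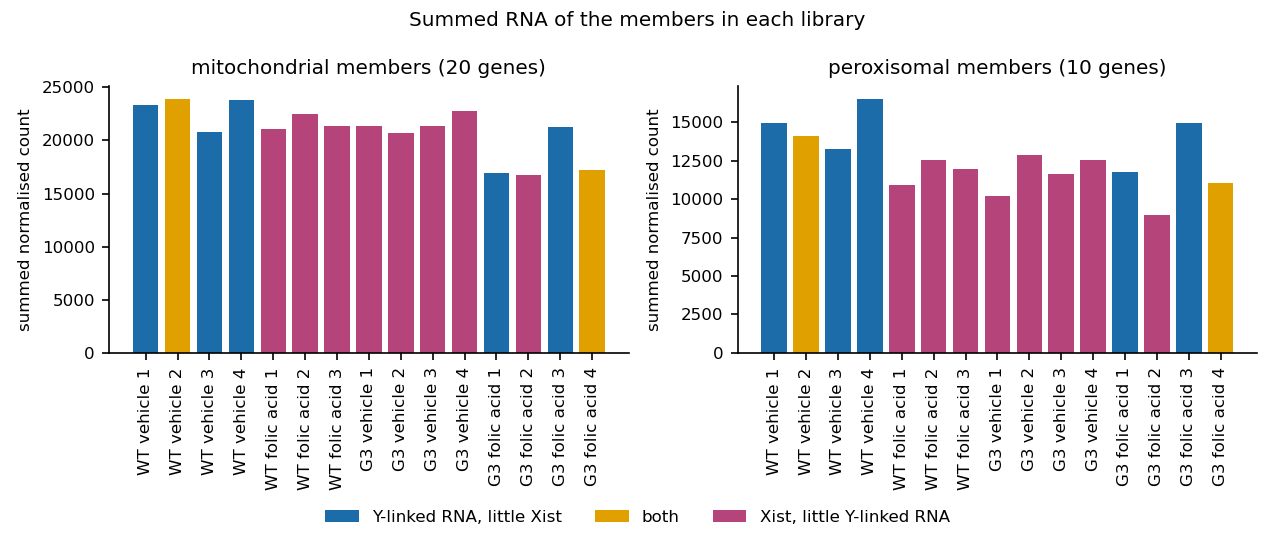
Summed normalised count of the 20 mitochondrial and the 10 peroxisomal genes (bars) in each library, coloured by sex-linked RNA. The mitochondrial sum is at most 17179 in 3 of 4 G3 folic acid libraries and at least 20735 in the other 12 libraries, and the peroxisomal sum is highest in WT vehicle 4 and lowest in G3 folic acid 2.

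Other genes of fatty acid breakdown were examined as a list of 43, of which 41 were in the table and tested. For this list and those below, the share of all genes called by limma was 5.06, 0.273, 2.9, 2.3 and 3.82 percent in the order given for the members. At an unadjusted p under 0.05 it was 23.1, 13.8, 17.9, 20.4 and 16.8 percent. After folic acid in WT 2 of the 41 were higher than after vehicle, the acyl-CoA thioesterases Acot2 (log2 difference 1.09, adjusted p 0.0157) and Acot3 (1.82, 0.0263), and 7 were lower. Among those were Crot (-1.90, 0.0119) and Phyh (-1.18, 0.0119), Acat1 (-1.13, 0.0284), Amacr (-1.97, 0.0435), Pecr (-1.07, 0.0442) and Acox3 (-0.88, 0.0497). With the Y-linked RNA share the named differences were 0.77 for Acot2, 0.04 for Acot3, -0.31 for Crot, -0.53 for Phyh, 0.00016 for Acat1, -0.29 for Amacr, -0.08 for Pecr and 0.14 for Acox3, so that Acat1 and Acox3 changed sign. In G3 limma called 0 of the 41 for folic acid, with 10 at an unadjusted p under 0.05 (5 higher, 5 lower), while edgeR called 0 and DESeq2 1. Of these 41 genes 8 (19.5 percent) did not overlap between the 5 libraries with Y-linked RNA and the 8 with Xist, Acox3, Crot, Acat1, Pecr, Phyh, Acot3 and Acot12 among them. The share over all genes tested was 4.24 percent (621 genes).

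After vehicle 2 of the 41 were higher in G3, Acss1 (1.01, adjusted p 0.0354) among them, and 3 were lower, Crot (-1.90, 0.00609), Phyh (-0.92, 0.0242) and Pecr (-1.16, 0.0287). These became 0.67 for Acss1, -0.29 for Crot, -0.25 for Phyh and -0.15 for Pecr with the Y-linked RNA share. After folic acid limma called 1 of the 41, Acot2, lower in G3 (-1.36, adjusted p 0.00937), with 14 at an unadjusted p under 0.05, while edgeR called 2 and DESeq2 6. It stood at 481, 438 and 499 in WT folic acid and at 161, 160, 152 and 287 in G3 folic acid, and its difference was -1.18 with the Y-linked RNA share, short of the threshold (adjusted p 0.134). The difference of effects called 9 of the 41 (7 higher, 2 lower). With the Y-linked RNA share limma called 0 in each comparison, with 1, 4, 4, 5 and 0 at an unadjusted p under 0.05 in the order given for the members.

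Among 21 tested genes of the PPAR axis, Cyp4a14 (2.96, adjusted p 0.0457) and Ucp2 (0.94, 0.0475) were higher after folic acid in WT. Acsm3 (-6.33, 0.0131) and Cd36 (-1.36, 0.0261) were lower there, and in G3 limma called 0 (7 at an unadjusted p under 0.05, 1 by edgeR and 3 by DESeq2). The WT values were -0.82 for Cyp4a14, 1.16 for Ucp2, -1.85 for Acsm3 and -0.06 for Cd36 with the Y-linked RNA share, so that Cyp4a14 changed sign. Cyp4a14 is also on the list of genes higher in female kidney and Acsm3 on that of male kidney. Between the 5 libraries with Y-linked RNA and the 8 with Xist, neither overlapped (Cyp4a14 36.2 to 142 against 567 to 2861, Acsm3 987 to 2743 against 7.52 to 63.5), and nor did Cd36 (701 to 1796 against 303 to 668). After vehicle 1 was higher in G3, Cyp4a14 (4.12, 0.00924), and 2 lower, Cd36 (-1.82, 0.00431) and Acsm3 (-6.57, 0.00584), with 0.27, -0.49 and -2.001 in the fit with the Y-linked RNA share. After folic acid Ppargc1a, the coactivator of mitochondrial genes, and Cyp4a10, a fatty acid hydroxylase that PPAR alpha raises, were lower in G3 (-0.46 and -0.87, adjusted p 0.0407 for each). Ppargc1a had 700, 787 and 832 in WT folic acid and 491, 613, 596 and 544 in G3 folic acid, without overlap, and -0.36 with the Y-linked RNA share (adjusted p 0.365), where Cyp4a10 had -0.53 (adjusted p 0.406). The difference of effects called 5 (2 higher, 3 lower).

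The 17 peroxins and peroxisomal membrane genes had 0 calls in all 5 comparisons by limma, edgeR and DESeq2, with 2, 0, 1, 3 and 0 at an unadjusted p under 0.05 in the order given for the members. Of 12 genes of fatty acid synthesis, Elovl6 was higher (2.04, adjusted p 0.0184) and Me1 lower (-1.07, 0.0309) after folic acid in WT, and in G3 limma called 0 (3 at an unadjusted p under 0.05, and 0 by edgeR and by DESeq2). After vehicle Elovl6 (1.78, 0.0263) and Scd1 (2.27, 0.0487) were higher and Me1 lower (-1.10, 0.0242) in G3, and after folic acid Elovl6 was lower (-1.88, 0.0332). Elovl6 had 0.18, -0.11 and -0.82 in these 3 comparisons with the Y-linked RNA share, Me1 -0.08 in each of its 2 and Scd1 0.17, and the 3 genes did not overlap between libraries with Y-linked RNA and with Xist. The difference of effects called 3 (1 higher, 2 lower). Genes known to be higher in male kidney moved with the groups as Y-linked RNA did: of 12, 10 were lower after folic acid than after vehicle in WT, all 12 were lower in G3 after vehicle, and 3 were higher in G3 after folic acid. With the Y-linked RNA share limma called 0 of these 12 in each comparison, with 4 to 6 at an unadjusted p under 0.05. It also called 0 of the PPAR axis, peroxin and synthesis genes, with 0 to 4 of a list at an unadjusted p under 0.05.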

How the data were processed

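Per the labels' protocols, kidney RNA (1 library per sample) was sequenced with the QuantSeq 3' kit. The submitters' processing notes name FastQC 0.11.7, TopHat2 2.0.10, Bowtie 1.0.0, SAMtools 0.1.19, HTSeq 0.6.1, DESeq2 and GRCm38; the annotation release and the filter on genes are not given in these. In the deposited table the values are a signal, gene counts over 1 size factor per library: 100 percent of them are whole reads within 0.001 when divided by a library's step (0.895 to 1.13). Genes reaching a normalised count of 10 in 3 or more of 15 libraries (14651 of 19602) were tested on log2(normalised count + 1) with limma 3.58.1 (R 4.3.3, trend, group as the only term), Benjamini-Hochberg adjustment over all of them, called under 0.05; folds are on that scale and understate changes of low genes. No term for labelled sex was used, because Xist and Y-linked RNA contradict it. Alternatives were terms for labelled sex, Y-linked RNA share or title number series, only the compared groups, filters of 0 and 50, pseudocounts of 0.5 and 5, TMM and quantile scaling, DESeq2 1.42.0 and edgeR 4.0.16 on recovered reads, leaving out each library or the 2 of mixed sex-linked RNA, and, chosen after seeing the data, the Y-linked RNA share without WT folic acid 1. The procedure was tested on simulated counts with changes in G3 folic acid alone. These held no variation by sex-linked RNA, title series or other tissue, so that test cannot assess calls that move with them. Values by library are given for 6 panel members (Cpt1a, Acadm, Hadha, Ehhadh, Cat, Pdk4) and the 3 members of smallest p in each comparison; genes of other lists are named where called, and Acot2 and Ppargc1a have library values chosen after they were seen. Some genes counted in a list are not reported here by name. Members and lists were chosen with earlier results of these data known. Whether libraries came from separate animals rests on the labels alone, so p-values measure the spread between these samples. Replicate numbers follow accession order. Promoter windows are from RefSeq (GRCm38.p6), and gene coordinates from RefSeq.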

Additional observations from a re-analysis of the deposited data

Results flagged for a closer look

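Among 102 groups of 4 libraries screened (34 genes in the 3 groups of 4), 4 held a library set far apart from the other 3, fewer than 1 in 20. The genes share the same libraries, so these screens are not independent. Whether the 4 differ from chance was not tested. Acsl1 stood at 2603 normalised counts in WT vehicle 2 against 1039 to 1254 in the others. That library is 1 of the 2 with both Xist and Y-linked RNA. Etfb stood at 3564 in WT vehicle 4 against 3132 to 3181, Etfdh at 260 in G3 vehicle 1 against 228 to 230, and Hsd17b4 at 359 in G3 folic acid 3 against 255.5 to 271. With group alone in the fit, the test of the difference of folic acid effects called Acsl1 (log2 -1.91) and Hadhb (log2 -0.75). With the Y-linked RNA share in the fit both fell short of the threshold. Apart from G3 folic acid 2, the pairs of groups set against each other differ in sex-linked RNA. Genotype and sex-linked RNA can therefore hardly be told apart in this test.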

How the results depend on the processing

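No direction reversed in the alternatives for the 3 members of smallest p in each comparison. Of all 170 differences (34 members, 5 comparisons), 50 had an unadjusted p under 0.05, and 8 of these changed sign with the Y-linked RNA share (Acadl, Acsl1, Ech1, Etfa, Hadh, Scp2 and Slc27a2) and 6 in that fit without WT folic acid 1; 0 did in the other alternatives. Counts of calls moved with the sex-linked RNA, the series of title numbers, the tool and single libraries, and the cause was not tested. Genes called for folic acid in WT numbered 741, and 370 with labelled sex, 1 with the Y-linked RNA share, 2 with the title series, 441 in only the compared groups, 1257 by DESeq2, 1254 without the 2 mixed libraries and 0 with the Y-linked RNA share without WT folic acid 1; members called (1) became 0, 0, 0 and 0 with labelled sex, Y-linked RNA share, title series and quantile scaling, 2 with the filter of 50, 4 by DESeq2, 5 without the mixed libraries and 0 in the last; their median (-0.19) became 0.013 with the Y-linked RNA share and 0.031 in the last. For folic acid in G3 the 40 genes became 12, 9, 0, 203, 387 and 11 in the same order, 16 with the filter of 50 and 129 in the last; members (1) became 0 with labelled sex, Y-linked RNA share, title series, the filter of 50 and the last, and 2 by DESeq2. For genotype after vehicle the 425 genes became 17, 1 and 1 with labelled sex, Y-linked RNA share and title series, 787 by DESeq2 and 1 in the last; members (3) became 0 with those 3 terms, 6 by DESeq2 and 0 in the last; their median (-0.04) became 0.11 with the Y-linked RNA share and 0.11 in the last. For genotype after folic acid the 337 genes became 17 with the Y-linked RNA share, 0 with the title series, 78 in only the compared groups, 778 by DESeq2, 578 without the mixed libraries and 54 in the last; members (2) became 0, 0, 0, 6, 4 and 0, and 4 with the filter of 50; their median (-0.07) became -0.20 with the title series. For the difference of effects the 560 genes became 103, 2 and 3 with labelled sex, Y-linked RNA share and title series, 966 without the mixed libraries and 3 in the last; members (2) became 0, 0, 0, 4 and 0; their median (-0.04) became -0.30 with the Y-linked RNA share and -0.34 in the last. Leaving out each library in turn gave, in that order of comparisons, 99 to 1306, 3 to 360, 81 to 685, 27 to 625 and 253 to 926 genes called, 0 to 4, 0 to 1, 0 to 5, 0 to 4 and 1 to 4 members called, and medians of -0.24 to -0.12, -0.26 to -0.10, -0.12 to -0.01, -0.09 to 0.00 and -0.12 to 0.05. No paired analysis was possible because the replicate numbers follow the order of accessions and pair nothing. The title series hold both groups of folic acid in WT (series b), where the fit with that term gave 2479 genes at an unadjusted p under 0.05 (3386 without it), and nearly repeat the groups of the G3 comparisons. Genes with few reads, Pdk4 and Hacl1 here, have large counting error.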

Other observations

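RNA of tissues beside the kidney differed between libraries. G3 vehicle 1 held 297 normalised counts of Adipoq, 138 of Plin1, 1518 of Cfd, 195 of Ucp1 and 677 of Cidea, genes of white and brown fat cells, and G3 folic acid 3 held 43 of Adipoq and 294 of Cfd. Albumin RNA (Alb), made by liver, stood at 852 in WT vehicle 3 and 823 in G3 folic acid 2 and at no more than 279 in the other 13 libraries, and Apoa1 stood at 416 and 226 in those 2 libraries and at no more than 74 elsewhere. Of the adrenal list 1 of 4 genes was in the table, Star, at 22 or fewer in every library, and of the muscle list 2 of 5, summing to 14.7 or fewer. The part of these tissues in the members' levels was not tested, other than by leaving out each library.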
